A study of Homo sapiens with 5 samples.

Results

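The lysosomal hydrolases and membrane proteins are a group of 39 listed genes that encode the cathepsins, glycosidases, sulfatases, lipid-handling enzymes and surface glycoproteins of the lysosome. A member was measured where a probe set annotated to that gene alone lay above an intensity of 20 on at least 1 array, and the probe set with the highest mean over the 5 arrays stands for the gene. By this rule 29 of the 39 genes were measured, among 3784 genes and 5029 probe sets that passed the same floor. The data are Affymetrix intensities from T84, an established line from a human colon carcinoma that stands in for secretory epithelium of the intestine. The T84 cells were untreated (1 array, described as a pooled control) or had interferon-gamma (IFN-gamma) at 1000 U/ml for 6 h (2 arrays) or 18 h (2 arrays). All groups are the same cell line with no other agent named, so the cells of a crypt, and the immune cells that meet IFN-gamma in a gut, are not represented. The arrays are labelled as biological replicates with no word on separate cultures, and the p-values cover only how far these arrays vary, which may be technical. In bulk RNA of this kind a lower share of cells with a transcript and less of it per cell cannot be told apart.

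Lysosomes are acidic organelles in which hydrolases break down proteins, glycans, sulfated polysaccharides and lipids that arrive by endocytosis, phagocytosis and autophagy. Most soluble hydrolases leave the Golgi with a mannose 6-phosphate tag, a proton-pumping vacuolar ATPase acidifies the lumen, and heavily glycosylated proteins such as LAMP1 and LAMP2 line the membrane. In antigen-presenting cells IFN-gamma is known to raise a few members of this compartment, such as cathepsin S and the thiol reductase IFI30, which prepare peptides for MHC class II. The comparisons of the listed genes describe the other hydrolases of an epithelial cell line on these arrays as labelled.

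Both the array labelled untreated and the array labelled 6 h replicate 1 went against their labels, which bears on every direction below. CXCL10, a chemokine and classic target of IFN-gamma, read 1317 on the array labelled untreated, 41 and 1149 on the arrays labelled 6 h replicates 1 and 2, and 1260 and 1399 on those labelled 18 h replicates 1 and 2. IRF1, TAP1 and GBP1 were likewise lowest on the array labelled 6 h replicate 1, with 14, 61 and 8. These genes read 1086, 1772 and 325 on the array labelled untreated. The authors' deposited table of selected induced probe sets gives another control column, in which CXCL10 is 17 and IRF1 is 43. That control column equals the column labelled untreated in 3 of 97 entries of the authors' deposited table, while its 4 treated columns match in all 97. Every sentence on a treated and an untreated group below therefore refers to arrays as labelled.

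A short sequence shared by many lysosomal promoters is the E-box core CACGTG, to which basic helix-loop-helix zipper factors bind, among them TFEB, a transcription factor of lysosomal genes, and the general factor USF1. RefSeq promoters, 250 bases before to 50 bases after the gene start in GRCh38.p14, were matched for 22 of the 29 measured members by symbol. CTSK, HEXA, NAGLU, SGSH, ASAH1, PSAP and LAMP2 had no entry. CACGTG, which reads the same on both strands, occurred in 6 of the 22 promoters (27.3%), those of CTSA, CTSD, GAA, GALNS, LAMP1 and CD63, and in 7.3% of 35116 promoters of the same length. The other motif searched for, the GAS motif TTCNNNGAA, occurred in 2 of the 22 (9.1%), FUCA1 and ARSB, and in 7.7% of the 35116. The 4 promoters below belong to members with high or array-dependent signal, and the capitals mark the E-box core. CTSA lies at chr20:45891085-45891384 on the plus strand, CTSD at chr11:1763878-1764177 on the minus strand, CD63 at chr12:55728960-55729259 on the minus strand and LAMP1 at chr13:113296989-113297288 on the plus strand. Each is written 5′ to 3′ on the strand of the gene and ends in the first bases of the transcript.
CTSA: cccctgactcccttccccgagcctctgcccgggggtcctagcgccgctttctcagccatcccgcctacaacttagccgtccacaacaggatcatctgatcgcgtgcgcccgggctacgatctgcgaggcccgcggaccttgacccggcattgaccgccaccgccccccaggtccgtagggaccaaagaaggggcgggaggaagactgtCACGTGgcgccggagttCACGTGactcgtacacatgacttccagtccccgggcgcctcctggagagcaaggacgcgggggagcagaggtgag
CTSD: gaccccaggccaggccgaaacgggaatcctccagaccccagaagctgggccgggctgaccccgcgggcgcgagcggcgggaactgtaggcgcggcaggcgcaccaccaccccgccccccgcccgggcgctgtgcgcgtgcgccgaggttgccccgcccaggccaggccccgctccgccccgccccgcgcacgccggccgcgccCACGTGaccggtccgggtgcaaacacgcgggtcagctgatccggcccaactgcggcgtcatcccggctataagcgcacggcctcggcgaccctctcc
CD63: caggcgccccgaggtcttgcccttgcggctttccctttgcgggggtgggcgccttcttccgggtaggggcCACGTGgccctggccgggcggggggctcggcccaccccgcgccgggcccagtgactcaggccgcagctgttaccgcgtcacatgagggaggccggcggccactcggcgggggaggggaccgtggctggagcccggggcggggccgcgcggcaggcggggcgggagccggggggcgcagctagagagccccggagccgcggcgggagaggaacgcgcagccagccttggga
LAMP1: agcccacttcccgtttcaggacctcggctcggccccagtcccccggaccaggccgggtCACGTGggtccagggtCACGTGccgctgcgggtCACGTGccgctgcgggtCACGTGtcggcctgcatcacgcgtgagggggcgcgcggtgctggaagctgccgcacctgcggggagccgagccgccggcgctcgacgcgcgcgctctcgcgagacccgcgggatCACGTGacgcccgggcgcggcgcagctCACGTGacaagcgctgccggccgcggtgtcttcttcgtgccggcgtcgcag
In CTSA the 2 cores begin 42 and 25 bases before the gene start, and the core of CTSD begins 47 bases before it. CD63 has its core 180 bases before the start. LAMP1 holds 6 cores, the first 192 bases before the start and the last 1 base before it. These matches describe letters only. The 6 members that carry the core had log2 changes from 0.00 to 0.61 at 18 h and from -0.69 to 0.90 at 6 h, each against untreated, and none passed the test described next.

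Across the whole table the fit made no call, and the members are read against that. In the comparison of 18 h with untreated, 0 of 5029 probe sets passed an adjusted p of 0.05 in limma with Benjamini-Hochberg adjustment (0% called), and the smallest adjusted p was 0.985. An unadjusted p under 0.05 was reached by 223 probe sets (4.43%) and by 0 of the 29 members, of which IDS had the smallest p, 0.0782. At 6 h against untreated 0 probe sets passed (0%), 183 had an unadjusted p under 0.05 (3.64%), and 1 member, NAGLU, was among them. Between 18 h and 6 h 0 passed (0%), with a smallest adjusted p of 0.94, and 217 had an unadjusted p under 0.05 (4.31%), NAGLU and GALNS among them. Adjusted p-values of the 29 members were 1 in both comparisons with the array labelled untreated and lay between 0.94 and 1 between 18 h and 6 h. No lysosomal member is therefore reported as risen or fallen, and the values below describe these arrays. CXCL10, IRF1, TAP1 and GBP1, the targets of IFN-gamma used to check the labels, were not called either. Their log2 changes at 18 h against untreated were 0.01, -0.23, -0.10 and 0.40, and CXCL10 had 2.60 (SE 1.88) at 18 h against 6 h. With these labels the lack of calls cannot decide whether a member responds to IFN-gamma.

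The group as a whole sat near 0 in each comparison. For 18 h against untreated 16 of the 29 members were above 0, 12 below and 1 at 0, with a median log2 change of 0.03 beside -0.02 over all 5029 probe sets. At 6 h against untreated 15 were above and 14 below, with a median of 0.04 beside 0.00 over all probe sets, and with 6 h replicate 2 alone 12 were above and 16 below, with a median of -0.06. Between 18 h and 6 h 13 were above and 16 below, with a median of -0.11 beside -0.03. Changes of single members ran from -1.29 (IDS) to 0.85 (CTSC) at 18 h against untreated and from -1.12 (NAGLU) to 1.33 (HEXA) at 6 h against untreated. All of these are on the scale log2(intensity + 1) with a floor of 20, which understates the change of dim genes.

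**Figure D1:**
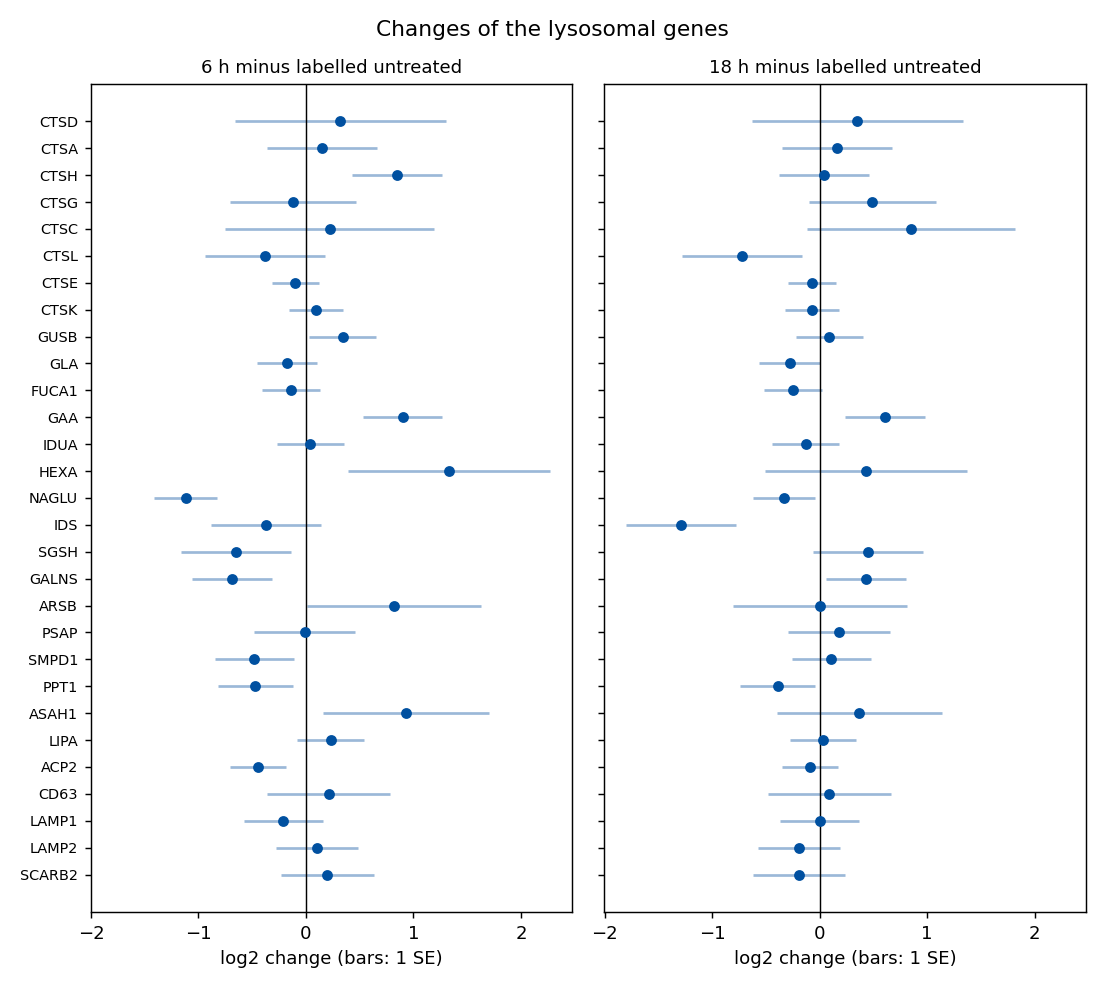
Log2 change of the 29 measured lysosomal genes, grouped by role, for 6 h (left) and 18 h (right) of IFN-gamma against the array labelled untreated; points are changes on the floored log2 scale and bars are 1 SE from limma. Changes lie on both sides of 0 in both comparisons, from -1.12 (NAGLU) to 1.33 (HEXA) at 6 h and from -1.29 (IDS) to 0.85 (CTSC) at 18 h.

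Changes of at least 2-fold were found for 1 or 2 members per comparison. In the 18 h comparison with untreated 0 members were at least 2-fold higher beside 5.01% of all probe sets, and 1, IDS, was at least 2-fold lower beside 4.81%. At 6 h against untreated HEXA alone was at least 2-fold higher (5.21% of all probe sets) and NAGLU alone at least 2-fold lower (5.11%). Between 18 h and 6 h GALNS and SGSH were at least 2-fold higher (4.02% of all probe sets) and 0 members were at least 2-fold lower (3.24%).

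Of the 9 cathepsins, the proteases that do most of the protein breakdown in the lysosome, 8 were measured, and CTSB never exceeded 20. Their median log2 change was 0.10 at 18 h and 0.12 at 6 h, each against untreated, with 0 calls. CTSD, the aspartic protease cathepsin D, read 613 on the array labelled untreated, 1401 and 417 on the arrays labelled 6 h, and 558 and 1094 on the 18 h arrays. The array labelled 6 h replicate 1 was highest and its replicate lowest, so the arrays of 1 time differed more than the times did. CTSD averaged 826 ± 379 at 18 h and 909 ± 696 at 6 h (SD, n = 2 each). Its log2 change was 0.35 (SE 0.98) at 18 h and 0.32 (SE 0.98) at 6 h against untreated.

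CTSA, the protective protein cathepsin A that stabilises beta-galactosidase and neuraminidase in the lysosome, followed the same order of arrays. It read 502 on the array labelled untreated, 751 and 414 on those labelled 6 h, and 478 and 656 on the 18 h arrays. The labelled-untreated value lay inside both treated pairs, and the log2 change was 0.16 (SE 0.51) at 18 h and 0.15 (SE 0.51) at 6 h. CTSH, an aminopeptidase cathepsin, had 201 on the array labelled untreated, 465 and 282 on those labelled 6 h, and 223 and 192 on the 18 h arrays. Both 6 h arrays lay above the other 3 for CTSH, the only 1 of 29 members in that position (3.4%, beside 7.34% of all probe sets). CTSH averaged 207.5 ± 21.9 at 18 h and 373.5 ± 129 at 6 h (SD, n = 2 each), a log2 change of -0.80 (SE 0.34, unadjusted p = 0.0924 in limma) at 18 h against 6 h, and its 6 h change of 0.85 against untreated was 0.49 without the array labelled 6 h replicate 1.

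CTSC, the dipeptidyl peptidase that activates granule serine proteases, gave the highest change of the group at 18 h against untreated. It read 56 on the array labelled untreated, 35 and 121 on those labelled 6 h, and 138 and 75 on the 18 h arrays. Both 18 h arrays lay above the array labelled untreated, but the 6 h pair spanned nearly the whole range. The log2 change was 0.85 (SE 0.97, unadjusted p = 0.44 in limma) at 18 h, and at 6 h it was 0.22 with both arrays and 1.10 without the array labelled 6 h replicate 1.

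CTSL, an endopeptidase cathepsin, went the other way in value, with 93 on the array labelled untreated, 52 and 97 on those labelled 6 h, and 45 and 70 on the 18 h arrays. Both 18 h values lay below the array labelled untreated, at 57.5 ± 17.7 (SD, n = 2) and a log2 change of -0.72 (SE 0.56, unadjusted p = 0.285 in limma). The 6 h pair overlapped both. CTSG, cathepsin G, is a protease of neutrophil granules and gave 110 on the array labelled untreated, 68 and 151 on those labelled 6 h, and 146 and 164 on the 18 h arrays. Of the other granule genes PRTN3 never exceeded 20. MPO read 147 on the array labelled untreated, 79 and 144 on those labelled 6 h, and 123 and 137 on the 18 h arrays, lowest on the same array as CTSG, while AZU1 read 91 on the array labelled untreated, 172 and 94 on those labelled 6 h, and 66 and 190 on the 18 h arrays, highest on 18 h replicate 2. The other MPO probe set reached 22, and the 3 probe sets of ELANE disagreed, 1 of them negative on every array and the brightest between 92 and 113. The summed level of the granule markers was 351 on the array labelled untreated, 349 and 348 on those labelled 6 h, and 295 and 419 on the 18 h arrays, and its part in the CTSG signal was not tested. The remaining cathepsins, CTSE of the endosome and CTSK of osteoclasts, peaked at 22 and 25 on the probe sets that stand for them, at or near the floor on every array, and the other CTSE probe set, M84424_at, reached 30 on the array labelled 6 h replicate 1.

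**Figure D2:**
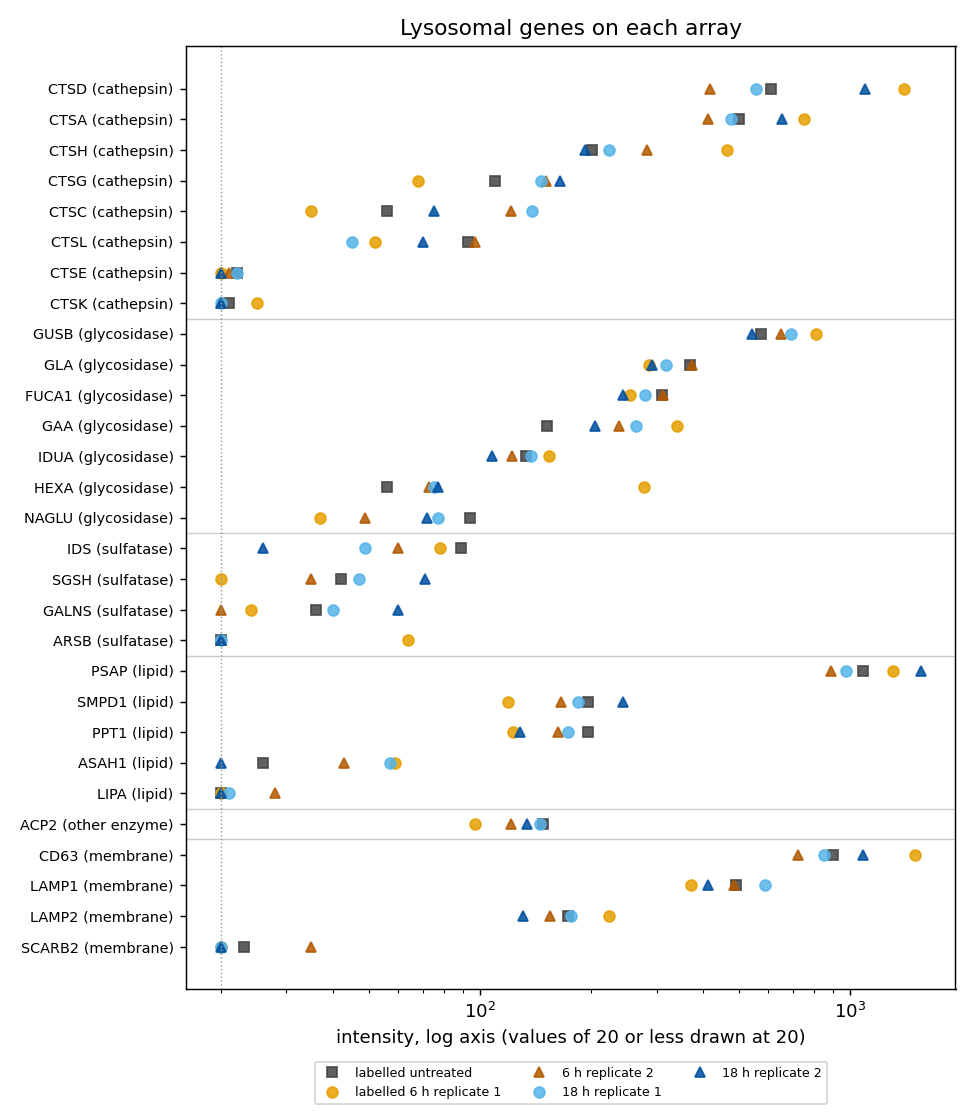
Intensity of the 29 measured lysosomal genes on each of the 5 arrays, log axis, values of 20 or less drawn at 20, with 1 row per gene grouped by role and 1 marker per array as labelled. For CTSA, CTSD and CD63 the array labelled untreated lies between the arrays of each time, and CTSD reads 1401 and 417 on the arrays labelled 6 h.

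Of the 12 glycosidases, including the glycosylasparaginase AGA, 7 were measured. GALC and MAN2B1 never exceeded 20, GLB1 had only a probe set shared with TMPPE, and MANBA and AGA were not in the annotation used here. The median log2 change of the 7 was -0.13 at 18 h and 0.04 at 6 h against untreated. GAA, the acid alpha-glucosidase that degrades glycogen, read 152 on the array labelled untreated, 341 and 238 on those labelled 6 h, and 264 and 204 on the 18 h arrays. All 4 treated arrays were above the array labelled untreated. GAA averaged 234 ± 42.4 at 18 h and 289.5 ± 72.8 at 6 h (SD, n = 2 each), with log2 changes against untreated of 0.61 (SE 0.37, unadjusted p = 0.192) and 0.90 (SE 0.37, unadjusted p = 0.0861) in limma. HEXA, the alpha subunit of beta-hexosaminidase, was the other member above on all 4 treated arrays, which makes 2 of 29 (6.9%) beside 10.1% of all probe sets.

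HEXA owed its size to 1 array. It read 56 on the array labelled untreated, 277 and 73 on those labelled 6 h, and 75 and 77 on the 18 h arrays. The log2 change at 6 h against untreated was 1.33 (SE 0.94, unadjusted p = 0.246 in limma) with both arrays and 0.38 without the array labelled 6 h replicate 1, and at 18 h it was 0.43. NAGLU, which removes N-acetylglucosamine from heparan sulfate, had 94 on the array labelled untreated, 37 and 49 on those labelled 6 h, and 77 and 72 on the 18 h arrays. Its groups did not overlap and both 6 h arrays were lowest. NAGLU averaged 74.5 ± 3.54 at 18 h and 43 ± 8.49 at 6 h (SD, n = 2 each), and its 6 h change against untreated was -1.12 (SE 0.29, unadjusted p = 0.0252, adjusted p = 1 in limma). At 18 h against 6 h the NAGLU change was 0.79 (SE 0.23, unadjusted p = 0.0377, adjusted p = 0.94 in limma).

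The other glycosidases had narrower ranges. GUSB, beta-glucuronidase of glycosaminoglycan breakdown, read 574 on the array labelled untreated, 811 and 651 on those labelled 6 h, and 691 and 542 on the 18 h arrays, with changes against untreated of 0.09 (SE 0.31) at 18 h and 0.34 (SE 0.31) at 6 h. GLA, the alpha-galactosidase missing in Fabry disease, lay between 287 and 373 on the 5 arrays, FUCA1, an alpha-fucosidase, between 244 and 313, and IDUA, an iduronidase of dermatan and heparan sulfate, between 108 and 154. Their changes at 18 h against untreated were -0.28 for GLA, -0.25 for FUCA1 and -0.13 for IDUA.

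Of the 5 sulfatases, which strip sulfate groups from glycosaminoglycans and sulfolipids, 4 were measured, and ARSA never exceeded 20. IDS, the iduronate 2-sulfatase missing in Hunter syndrome, gave the lowest change of the group at 18 h. On its brighter probe set, L13329_at, it read 89 on the array labelled untreated, 78 and 60 on those labelled 6 h, and 49 and 26 on the 18 h arrays. The 3 groups did not overlap and the 18 h arrays were lowest. Both 18 h arrays were below the other 3, the only 1 of 29 members so placed (3.4%) beside 8.79% of all probe sets. IDS averaged 37.5 ± 16.3 at 18 h and 69 ± 12.7 at 6 h (SD, n = 2 each), with a log2 change at 18 h against untreated of -1.29 (SE 0.51, unadjusted p = 0.0782, adjusted p = 1 in limma), which was -0.85 without 18 h replicate 2 and -1.74 without 18 h replicate 1. The other IDS probe set, L40586_at, which was singled out after its values were seen, read 65 on the array labelled untreated, 62 and 72 on those labelled 6 h, and 37 and 27 on the 18 h arrays. Its 18 h change was -1.02 (SE 0.31, unadjusted p = 0.0428, adjusted p = 1 in limma), so both probe sets of IDS had their lowest values at 18 h.

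GALNS and SGSH, sulfatases of keratan sulfate and of heparan sulfate, were the 2 of 29 members above the other 3 arrays on both 18 h arrays (6.9%, beside 7.66% of all probe sets). GALNS read 36 on the array labelled untreated, 24 and 5 on those labelled 6 h, and 40 and 60 on the 18 h arrays. SGSH read 42 on the array labelled untreated, 9 and 35 on those labelled 6 h, and 47 and 71 on the 18 h arrays. All of these are dim, close to the floor, and the 6 h changes rest partly on values under it. The log2 change of GALNS at 18 h against 6 h was 1.13 (SE 0.30, unadjusted p = 0.0285, adjusted p = 0.94 in limma). For SGSH it was 1.10 (SE 0.42, unadjusted p = 0.0728 in limma), and 0.71 without the array labelled 6 h replicate 1. GALNS is also in the authors' deposited table of induced probe sets, where its control value is 4, against 36 on the array labelled untreated. ARSB, a sulfatase of dermatan and chondroitin sulfate, was above 20 only on the array labelled 6 h replicate 1, at 64.

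Of the 6 lipid-handling genes, acid enzymes and the sphingolipid activator PSAP, 5 were measured, and the activator GM2A stayed just outside the floor with a maximum of 19. SMPD1, acid sphingomyelinase, had 4 probe sets that disagreed. The brightest, M81780_cds5_at, read 196 on the array labelled untreated, 119 and 166 on those labelled 6 h, and 184 and 244 on the 18 h arrays, a log2 change of 0.11 (SE 0.37) at 18 h and -0.48 (SE 0.37) at 6 h against untreated. M59916_at, singled out after its values were seen, read 44 on the array labelled untreated, 89 and 90 on those labelled 6 h, and 204 and 194 on the 18 h arrays, so that its 3 groups did not overlap and followed the order of labelled time. It averaged 199 ± 7.07 at 18 h and 89.5 ± 0.707 at 6 h (SD, n = 2 each), 4.44-fold and 2.01-fold the value on the array labelled untreated on the floored scale. The log2 change was 2.15 (SE 0.21, unadjusted p = 0.00141, adjusted p = 0.985) at 18 h and 1.01 (SE 0.21, unadjusted p = 0.0144, adjusted p = 1) at 6 h in limma. M81780_cds3_at read 57 on the array labelled untreated, -33 and 69 on those labelled 6 h, and 49 and 61 on the 18 h arrays, and M81780_cds4_at was negative on all 5. The order on M59916_at was thus not shared by the other 3 probe sets of the gene. It also rests on the labels, since CXCL10 read 1317 on the array labelled untreated and 41 on the array labelled 6 h replicate 1.

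**Figure D3:**
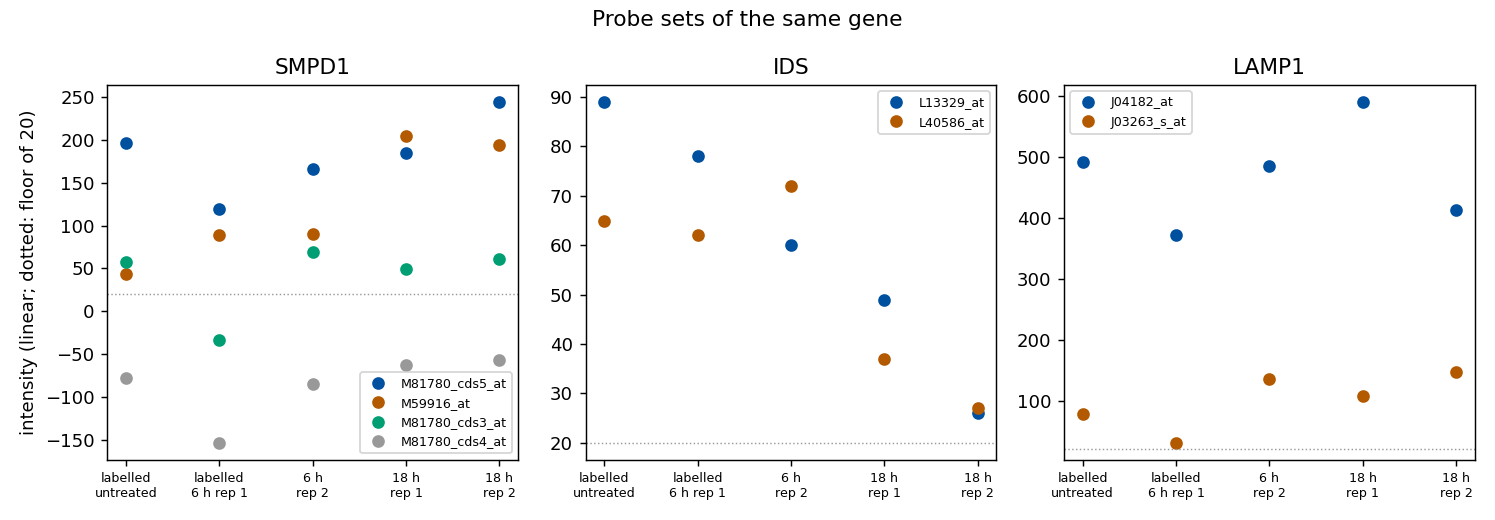
Intensity of each probe set of SMPD1, IDS and LAMP1 on the 5 arrays, linear axis, arrays in order of labelled time. On M59916_at of SMPD1 the array labelled untreated reads 44, the 6 h arrays 89 and 90 and the 18 h arrays 204 and 194, while the other SMPD1 probe sets have no such order and both IDS probe sets are lowest at 18 h.

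Among the other lipid genes, PSAP, which is cleaved into the saposins, read 1085 on the array labelled untreated, 1307 and 888 on those labelled 6 h, and 973 and 1550 on the 18 h arrays. Its groups overlapped, with changes of 0.18 (SE 0.47) at 18 h and -0.01 (SE 0.47) at 6 h against untreated. PPT1, a palmitoyl-protein thioesterase, had 196 on the array labelled untreated, 123 and 162 on those labelled 6 h, and 173 and 128 on the 18 h arrays. All 4 treated values of PPT1 were below the array labelled untreated, with changes of -0.39 (SE 0.35) at 18 h and -0.47 (SE 0.35) at 6 h. ASAH1, acid ceramidase, lay between 18 and 59, and LIPA, the acid lipase of cholesterol esters, peaked at 28 on its brighter probe set. LIPA is the other member in the authors' deposited table, with a control value of 1 there against 8 on the array labelled untreated.

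Of the remaining enzymes, the tripeptidyl peptidase TPP1 was not in the annotation used here, and ACP2, lysosomal acid phosphatase, had 148 on the array labelled untreated, 97 and 121 on those labelled 6 h, and 145 and 134 on the 18 h arrays. ACP2 averaged 139.5 ± 7.78 at 18 h and 109 ± 17 at 6 h (SD, n = 2 each), and its change at 18 h against untreated was -0.09 (SE 0.26). NAGLU, IDS, PPT1 and ACP2 were the 4 of 29 members below the array labelled untreated on all 4 treated arrays (13.8%), beside 18.3% of all probe sets. NAGLU, GALNS, SGSH, SMPD1 and ACP2 were the 5 of 29 members below the other 3 arrays on both 6 h arrays (17.2%), beside 6.22% of all probe sets.

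Of the 5 membrane proteins 4 were measured, and CD68, a glycoprotein of macrophage lysosomes, had only a probe set shared with SNORA67 that was negative on every array. LAMP1, the main membrane glycoprotein, read 492 on the array labelled untreated, 371 and 485 on those labelled 6 h, and 590 and 412 on the 18 h arrays, with changes of 0.00 (SE 0.37) at 18 h and -0.21 (SE 0.37) at 6 h against untreated. Its dimmer probe set J03263_s_at read 78 on the array labelled untreated, 31 and 136 on those labelled 6 h, and 107 and 147 on the 18 h arrays. LAMP2, a membrane protein with a role in autophagy, had 173 on the array labelled untreated, 223 and 155 on those labelled 6 h, and 176 and 131 on the 18 h arrays. On these probe sets the groups overlapped. The other LAMP2 probe set, S79873_s_at, read 90 on the array labelled untreated, 54 and 85 on those labelled 6 h, and 117 and 88 on the 18 h arrays, so both 6 h arrays lay below the other 3. LAMP2 and its probe sets fall outside the rule for values by array and were given after they were seen. CD63, a tetraspanin of late endosomes and exosomes, read 900 on the array labelled untreated, 1493 and 721 on those labelled 6 h, and 851 and 1081 on the 18 h arrays, with changes of 0.09 (SE 0.57) and 0.21 (SE 0.57) against untreated at 18 h and 6 h. SCARB2, the receptor that carries beta-glucocerebrosidase to the lysosome, peaked at 35.

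For most members the array labelled 6 h replicate 1 set the range. It gave the highest value for 12 of the 29 and the lowest for 10, beside 25.0% and 31.3% of all probe sets. HEXA and ARSB were there at least 2-fold above all 4 other arrays, beside 2.68% of all probe sets, and 0 members were at least 2-fold below all 4, beside 4.81%. ARSB was above the floor on that array alone, so the value that made it a member also put it in this count. The array labelled 6 h replicate 1 read 2.39 times the median of the other 4 for CTSD, 2.19 times for CTSH and 1.71 times for CD63, but 0.36 times for CTSC, 0.45 times for SGSH and 0.46 times for CTSG. Log2 ratios of the array labelled 6 h replicate 1 were taken to the median of the 3 arrays other than itself and 18 h replicate 2. Among 589 probe sets with a mean of at least 400 the median ratio was 0.34, and 382 were above 0. Of the 6 such members 5 were above 0, with a median of 0.54. The 11 members with means between 100 and 400 had a median of -0.29 there, beside -0.14 over all probe sets of that level. For the 12 dimmer members it was -0.16, beside 0.0. On 18 h replicate 2 the median ratio was 0.10 over the 589 probe sets, with 341 above 0. It was 0.40 over the 6 members, with 4 above 0. The SD of intensities was likewise widest on these arrays, 410 and 350, against 245 to 308 on the other 3.

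Epithelial markers also differed between the arrays, in both directions. Of 10 markers, EPCAM, KRT8, KRT18, KRT19, KRT20, CEACAM5 and CDH17 were highest on the array labelled 6 h replicate 1, and CDH1 and CDX2 were lowest there, at 331 and 235. On 18 h replicate 2 KRT19 and VIL1 had their lowest values, 459 and 172. KRT8, a keratin of simple epithelium, read 1317 on the array labelled untreated, 2047 and 842 on those labelled 6 h, and 849 and 1849 on the 18 h arrays. The summed level of the 10, all measured, was 9866 on the array labelled untreated, 13222 and 7333 on those labelled 6 h, and 7998 and 10813 on the 18 h arrays. Of 6 macrophage and monocyte markers with a probe set, CD14, CD163, ITGAM and MRC1 never exceeded 20, and CSF1R and CD4 peaked at 30 and 37. With negative values counted as 0 the 6 summed to 40 on the array labelled untreated, 81 and 83 on those labelled 6 h, and 24 and 60 on the 18 h arrays. Markers of other cell types were not all near the floor. Of other leukocyte markers CD3E read between 168 and 345 across the arrays. PTPRC peaked at 38, and CD79A at 42 and 75 on its probe sets. Of fibroblast and endothelial markers COL1A1 peaked at 158, PECAM1 at 101, CDH5 at 91 and COL3A1 at 45. COL1A2 and VWF never exceeded 20. The source of these signals was not tested. After quantile normalization, which gives the arrays 1 common distribution, CTSD read 611 on the array labelled untreated, 1087 and 390 on those labelled 6 h, and 534 and 1031 on the 18 h arrays, so its order of arrays was kept. PSAP then read 1079 on the array labelled untreated, 1044 and 1079 on those labelled 6 h, and 1127 and 1310 on the 18 h arrays. HEXA still stood apart at 298 on the array labelled 6 h replicate 1. The part of the wider range in the members' values was not tested beyond this.

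**Figure D4:**
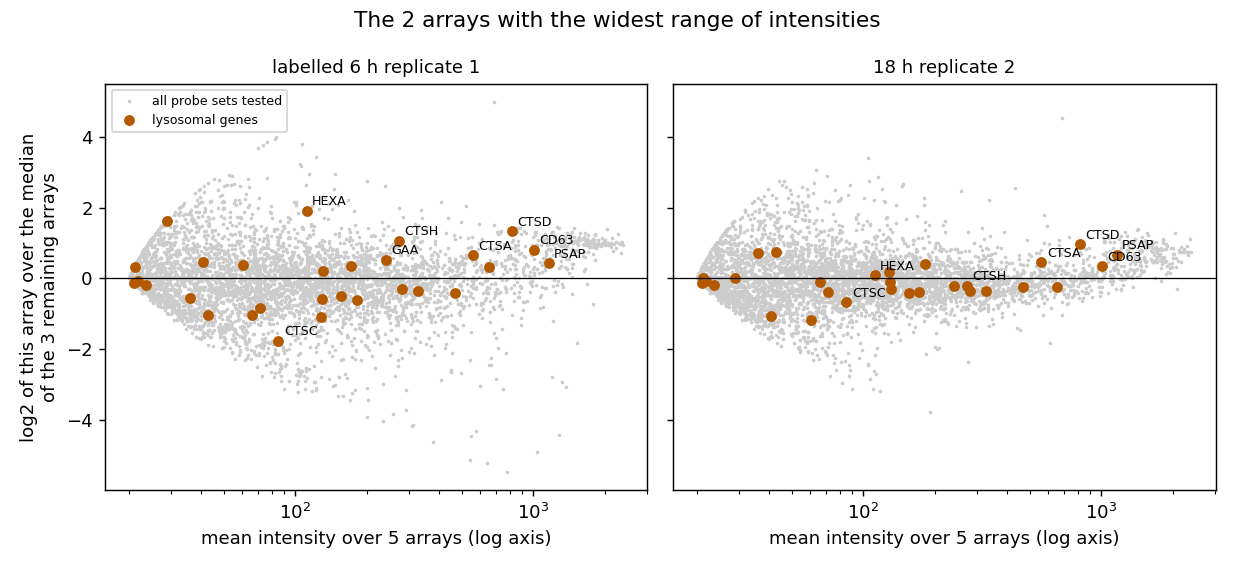
Log2 ratio of the arrays labelled 6 h replicate 1 (left) and 18 h replicate 2 (right) to the median of the 3 remaining arrays, against mean intensity on a log axis; grey points are the 5029 probe sets and coloured points the lysosomal genes. Of the 6 lysosomal genes with a mean of at least 400, 5 lie above 0 on the left (median 0.54) and 4 on the right (median 0.40), beside 382 and 341 of the 589 probe sets of that level. LAMP1 lies below 0 on both, at -0.41 and -0.26, and GUSB on the right only, at -0.26.

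Of related lysosomal genes outside the group 0 were called in any comparison. Of 19 vacuolar ATPase subunits 12 were measured, 4 above and 8 below 0 at 18 h and at 6 h against untreated, with medians of -0.09 and -0.13. Of 12 genes for sorting and transport, such as IGF2R, the mannose 6-phosphate receptor, 7 were measured, with a median of -0.11 at 18 h. Of 5 regulators of lysosomal genes 4 were measured, 3 above and 1 below 0 at 18 h, with a median of 0.52. MITF, a relative of TFEB, read 39 on the array labelled untreated, 70 and 29 on those labelled 6 h, and 46 and 176 on the 18 h arrays. Of 11 cystatins and other cathepsin inhibitors CST3 and CSTB were measured, with a median of -0.02 at 18 h. Of 19 other lysosomal enzymes 6 were measured, 4 above and 2 below 0 at 18 h against untreated, with a median of 0.31.

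IFI30, CTSS and LGMN, which act in antigen processing, are 3 of the 6 other enzymes measured and were singled out after their values were seen. IFI30, the thiol reductase named above, read 560 on the array labelled untreated, 116 and 549 on those labelled 6 h, and 929 and 1184 on the 18 h arrays. CTSS, cathepsin S, which cuts the invariant chain, had 58 on the array labelled untreated, 100 and 55 on those labelled 6 h, and 216 and 115 on the 18 h arrays. LGMN, an asparaginyl protease that matures cathepsins, had 581 on the array labelled untreated, 342 and 562 on those labelled 6 h, and 737 and 801 on the 18 h arrays. In all 3 both 18 h arrays lay above the other arrays, an order held by 7.66% of all probe sets and by none of NEU1, HYAL2 and DNASE2, the remaining enzymes of that list. The log2 changes at 18 h against untreated were 0.90 (SE 1.11) for IFI30, 1.43 (SE 0.63) for CTSS and 0.40 (SE 0.41) for LGMN, none past the threshold. IFI30 is also in the authors' deposited table of induced probe sets, where its control value is 83, against 560 on the array labelled untreated. CTSS and LGMN are not in that table. The members CTSD, CTSH and CTSL, which also act on endocytosed proteins, had no such order. Among the members only GALNS and SGSH had that order, and CTSC, the highest change of the members at 18 h, did not. The array labelled 6 h replicate 1, where CXCL10 was 41, is also where IFI30, LGMN and CTSC were at their lowest, and CTSS was not. CTSC is 1 of 10 members lowest on that array, as are 31.3% of all probe sets, so this position does not set CTSC apart.

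**Figure D5:**
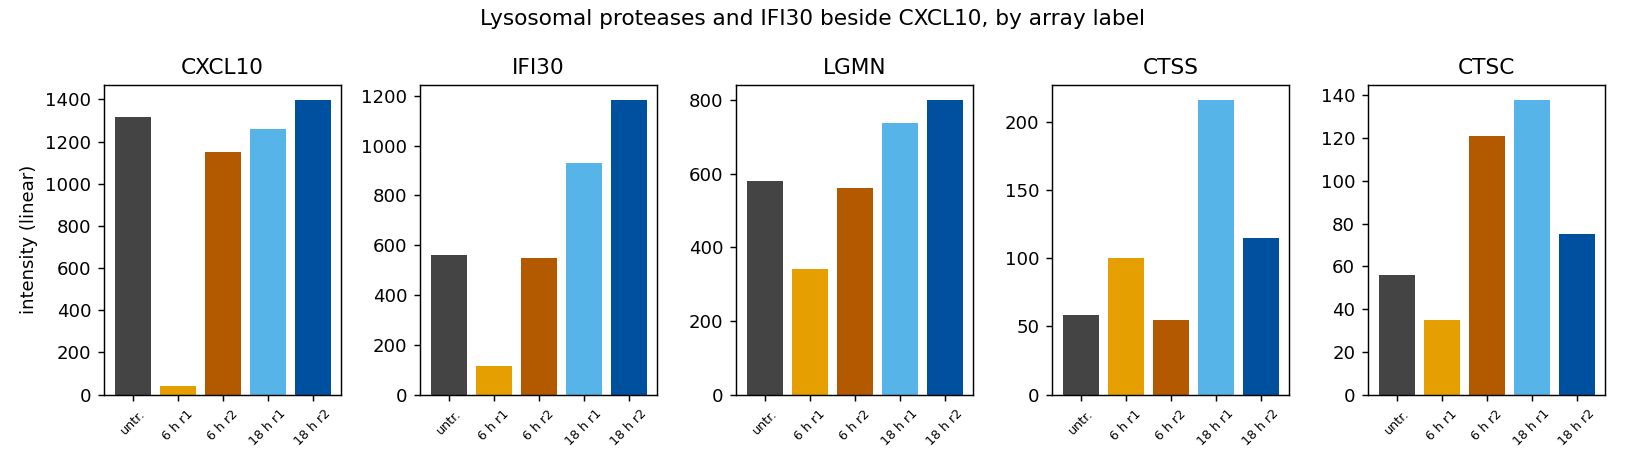
Intensity of CXCL10, IFI30, LGMN, CTSS and CTSC on the 5 arrays as labelled, linear axis from 0, 1 bar per array. CXCL10, IFI30, LGMN and CTSC are lowest on the array labelled 6 h replicate 1 (41, 116, 342 and 35), as are 31.3% of all probe sets. IFI30, LGMN and CTSS are highest on the 18 h arrays.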

How the data were processed

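Total RNA of T84 cells was fragmented, labelled with biotin and hybridised to Affymetrix arrays, per the labels' protocols. The authors deposited a linear intensity per probe set for 7018 probe sets, as whole numbers that include negative values. Their computation and scaling were not given in the sources used here, but the mean without the extreme probe sets was 98.3 to 100.3 on each array. A deposited list of selected probe sets holds 97 entries with intensity values of its own control column.

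Samples were grouped by their titles. Names of probe sets come from the platform annotation, 5649 with 1 gene symbol, 321 with several and 1048 with none. A floor of 20 was set, 1 added and log2 taken, and the 5029 probe sets above 20 on at least 1 array were fitted in limma 3.58.1 (R 4.3.3, lmFit and eBayes) with 3 groups, 2 residual and 1.24 prior degrees of freedom. For the array labelled untreated, which is alone in its group, the spread of the treated arrays was assumed. P-values were adjusted by Benjamini-Hochberg over all 5029, with a threshold of 0.05. The number of arrays limits the precision. The fit was also run on simulated data with known changes and an equal spread for all probe sets. That run does not test it under the uneven spreads and doubtful labels of these arrays. Named genes are all measured members by role, and genes of related lists. Members and lists were chosen with earlier results of these data known. Promoters are from RefSeq, GRCh38.p14.

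Alternatives were floors of 0, 50 and 100, no filter, quantile normalization, a trended prior, the mean over a gene's probe sets, a replicate block and leaving out each treated array. No pairing by replicate number was assumed in the main fit. Deviations of same-numbered arrays correlated at -0.29 over 5029 probe sets. That value cannot decide whether samples were paired, since the array labelled 6 h replicate 1 went against its label and had the widest range.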

Additional observations from a re-analysis of the deposited data

How the results depend on the processing

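No probe set was called in any comparison under any setting tried, except without the filter, which called 97 probe sets at 18 h against untreated, 100 at 6 h against untreated and 1 at 18 h against 6 h. Leaving out the filter adds 1989 probe sets that lie at the floor on every array and so have a spread of 0, which lowers the shared spread. SMPD1 on M59916_at then had an adjusted p of 0.0112 at 18 h and 0.0493 at 6 h against untreated in limma, and none of the other changes followed passed. Its 18 h change ran from 0.99 with a floor of 100 to 2.19, and its 6 h change from 0.00 with a floor of 100 to 1.04. The second IDS probe set at 18 h against untreated was -0.37 with a floor of 50, beside -1.02.

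Under the settings other than a left-out array, 783 changes of the 29 members and of the second SMPD1 and IDS probe sets were computed, of which 756 kept their direction and side of the threshold, 25 reversed and 2 became called. Many of the 783 could not reverse. Leaving out the filter and the trended prior alter only the p-values. A replicate block cannot move 18 h against 6 h, nor can the mean over probe sets move a gene with a single probe set. The array labelled untreated could not be left out, since it is the only array of its group.

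The median change of the members at 18 h against untreated was 0.09 with a floor of 50 and 0.09 with the mean over all probe sets of a gene. At 6 h against untreated it was -0.14 with a floor of 0 and 0.12 with a floor of 100, and at 18 h against 6 h it was -0.02 with a floor of 50 and -0.05 with a floor of 100. LIPA, which lies at the floor, became -0.94 at 18 h and -0.74 at 6 h with a floor of 0. With that floor CTSK was -0.32 and SCARB2 -0.71 at 6 h, and CTSE was -0.24 at 18 h against 6 h. With the mean over all probe sets IDUA was 0.34 at 18 h against untreated and 0.32 at 18 h against 6 h, CTSE was 0.09 at 6 h and -0.12 at 18 h against 6 h, and LAMP2 was -0.15 at 6 h and 0.14 at 18 h against 6 h. CTSG became 0.16 at 6 h with a floor of 100, and CD63 became 0.04 at 18 h against 6 h after quantile normalization. The median of all genes moved by at most 0.02 under quantile normalization.

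With the replicate block, the median of the members was -0.01 at 6 h against untreated, CTSC was -0.01 there, and at 18 h against untreated LIPA was -0.07, SMPD1 was -0.11, CTSK was 0.01, IDUA was 0.04 and LAMP2 was 0.05. Since the correlation of same-numbered arrays was -0.29, a crossed replicate block was added after seeing the data. It gave 0 calls, a median of 0.08 at 18 h against untreated, LAMP1 at -0.22, LIPA at -0.10 and CTSK at 0.01 there, and at 6 h CTSC at -0.44, PSAP at 0.30 and the second IDS probe set at -0.12.

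With 1 treated array left out, where the lone array of a time is assumed to vary like the other groups, 327 of 372 such changes kept their direction and 45 reversed. Leaving out an array of 1 time cannot move the comparison of the other time with untreated, so those changes kept their direction by design. Only the rest of the 372 could reverse. At 18 h against untreated the median of the members ran from -0.07 to 0.03, ASAH1 from -0.36 to 1.10, CD63 from -0.08 to 0.26, CTSA from -0.07 to 0.39, CTSD from -0.14 to 0.83, CTSH from -0.07 to 0.15, GUSB from -0.08 to 0.27, LAMP1 from -0.26 to 0.26, PSAP from -0.16 to 0.51, SMPD1 from -0.09 to 0.31, IDUA from -0.30 to 0.04 and LAMP2 from -0.40 to 0.02. At 6 h against untreated the median ran from -0.13 to 0.04, CD63 from -0.32 to 0.73, CTSA from -0.28 to 0.58, CTSC from -0.66 to 1.10, CTSD from -0.55 to 1.19, CTSG from -0.69 to 0.45, CTSL from -0.83 to 0.06, FUCA1 from -0.29 to 0.01, GLA from -0.37 to 0.01, the second IDS probe set from -0.07 to 0.15, PSAP from -0.29 to 0.27, CTSK from -0.07 to 0.24, IDUA from -0.12 to 0.21, LAMP2 from -0.16 to 0.36 and SCARB2 from -0.19 to 0.58. At 18 h against 6 h the median ran from -0.14 to 0.00, ASAH1 from -1.29 to 0.17, CD63 from -0.64 to 0.41, CTSA from -0.42 to 0.43, CTSC from -0.25 to 1.51, CTSD from -0.84 to 0.90, CTSL from -0.78 to 0.11, FUCA1 from -0.26 to 0.04, GLA from -0.29 to 0.08, HEXA from -1.85 to 0.06, LAMP1 from -0.04 to 0.48, LIPA from -0.43 to 0.03, PPT1 from -0.14 to 0.29, PSAP from -0.15 to 0.52 and CTSE from -0.03 to 0.10. The cause of these changes was not tested.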
